A study of Homo sapiens with 8 samples.

Results

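Retinoid metabolism and the retinoic acid receptors were followed through 9 genes: STRA6, CRABP2, RDH10, DHRS3, ALDH1A3, RARA, RARB, RARG and RXRA. The members were chosen with their measured values known, namely their level in 8 libraries, their log2 ratios in 4 pairs of Acetalax and control libraries, and their log2 ratios in 2 pairs of CE and parental control libraries. All 9 were found, each in 1 row, among 55679 gene identifiers. Because every contrast of the study had been used to choose them, their values are given as a description, and no test was run on them.

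The data are RNA-seq gene counts from MDA-MB468 and BT549, established human triple-negative breast cancer (TNBC) cell lines. Parental cells of each line, and cells of the same line that had survived chronic exposure (CE) to Acetalax (oxyphenisatin acetate, formerly used as a laxative), were each sequenced as untreated control and after 6 hours in 1 μmol/L Acetalax. CE cells had been raised to 40 μmol/L Acetalax, grew without it for 2 weeks before use and are described as resistant clones, so an effect of exposure cannot be told apart from a difference between clones. The study examined how these cells respond to Acetalax and what changes once they resist it. Each of the 8 conditions had 1 library, with 42261122 to 54241728 counts on genes (median 48064282), so no difference between 2 libraries has a replicate check. Levels are given as CPM, a gene's counts scaled to the library's total on genes. At this depth 1 CPM stands for 42.3 to 54.2 counts. Summed epithelial markers were at 7214 to 10440 CPM in MDA-MB468 and 6.16 to 87.7 CPM in BT549, summed mesenchymal markers at 28.0 to 80.4 and 4651 to 6362 CPM, and summed markers of blood, endothelium and fat never exceeded 0.904 CPM. ESR1, PGR and ERBB2, the receptors whose low level defines TNBC, summed to 48.0 to 100.3 CPM in MDA-MB468 and 41.2 to 89.8 CPM in BT549. Only 1 of the 3 (ERBB2) reached 1 CPM in all libraries. ESR1 was at 3.50 to 5.15 CPM in MDA-MB468 and at most 0.184 CPM in BT549, and PGR never exceeded 0.627 CPM.

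Retinol (vitamin A) enters cells through STRA6 and is oxidised to retinal by RDH10, a step that DHRS3 reverses. Retinal is then oxidised irreversibly to retinoic acid by enzymes such as ALDH1A3, CRABP2 carries retinoic acid to the nucleus, and RAR proteins bind DNA as dimers with RXR proteins, where retinoic acid turns them from repressors into activators. STRA6, DHRS3, CRABP2 and RARB are themselves known targets of retinoic acid, and in breast epithelium the pathway is known for promoting differentiation.

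After Acetalax, 5 of the 9 genes were lower in all 4 backgrounds (DHRS3, STRA6, RARB, RDH10 and RXRA), and 1, ALDH1A3, was higher in all 4. With other scalings of the libraries the 5 became 4, as RARB in MDA-MB468 parental cells (-0.02) changed sign. Of 14030 genes that averaged 1 CPM or more over the 8 libraries, 29.5% were lower in all 4 pairs and 11.8% were higher in all 4. These counts were known when the genes were chosen, so nothing is read from their distance to those shares. The median over the 4 backgrounds of the log2 ratio, taken throughout on CPM + 0.1, was -1.14 for DHRS3, -0.91 for STRA6, -0.80 for RARB, -0.58 for RDH10, -0.50 for RXRA and 1.27 for ALDH1A3, against -0.11 over all 14030 genes. The range beside each log2 ratio is the exact binomial 95% interval of the ratio of the 2 counts, scaled by the library totals. This range leaves out the added 0.1 CPM, which shrinks the printed ratios of sparse genes. It holds counting error alone, and reads copied by amplification are not separate molecules.

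**Figure D1:**
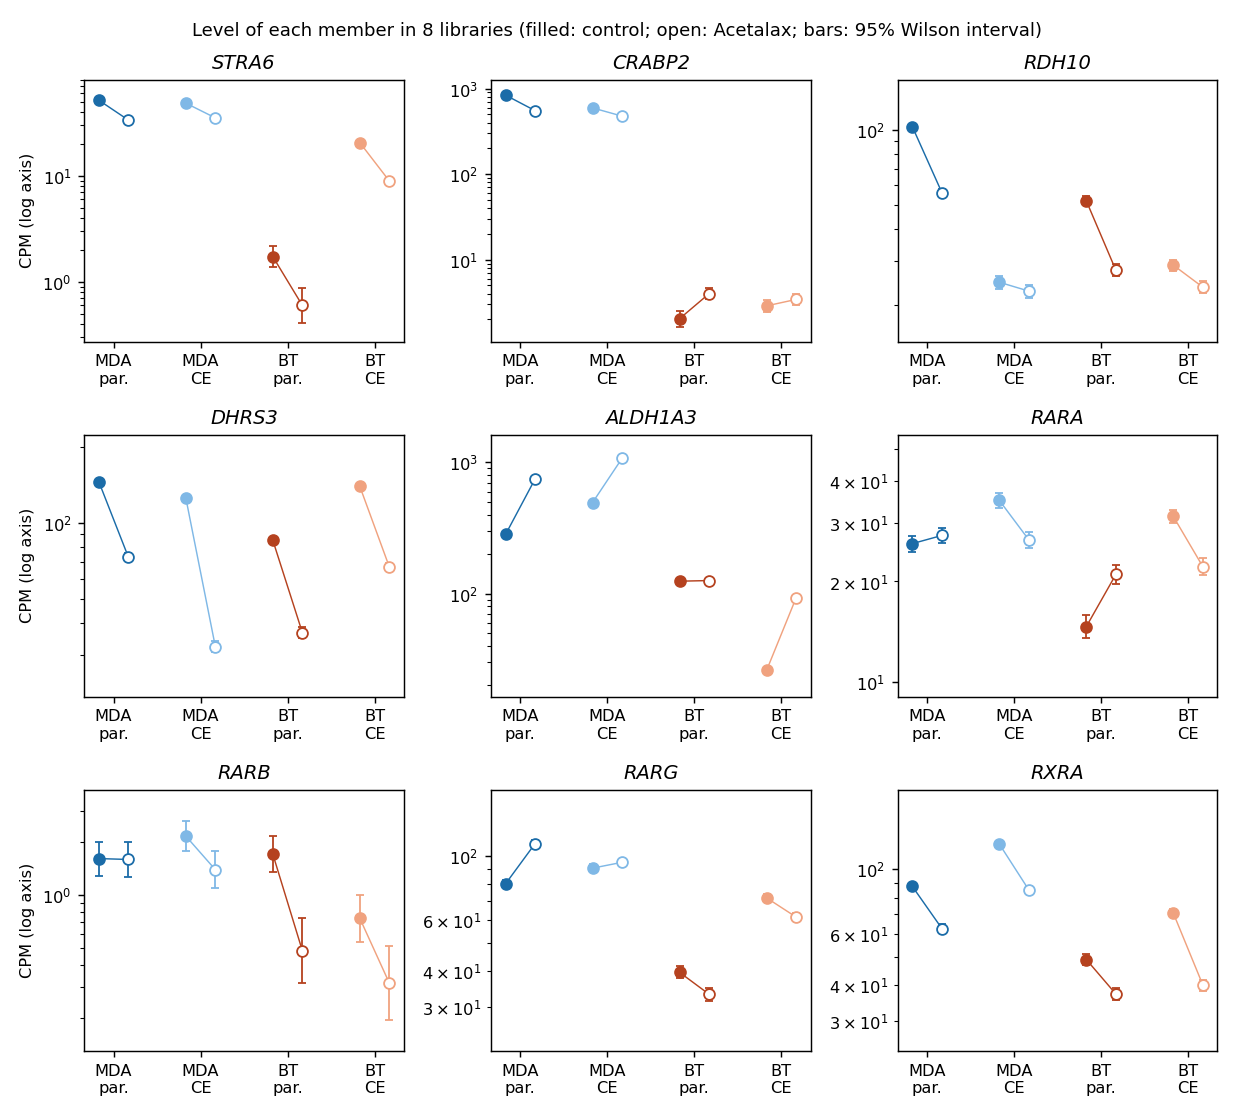
Each panel plots 1 gene, with the level in CPM on a log axis whose range differs between panels and the 4 backgrounds on the horizontal axis (MDA, MDA-MB468; BT, BT549; par., parental). Filled points are control libraries, open points Acetalax libraries, each a single library with its 95% Wilson interval; DHRS3 sits lower in the Acetalax library of every background, and CRABP2 lies between 476 and 838 CPM in MDA-MB468 and between 2.03 and 4.00 CPM in BT549.

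STRA6, the membrane receptor through which retinol enters cells (hg19 chr15:74471807-74504608, minus strand), was at 51.6 CPM in MDA-MB468 parental control cells and 33.5 CPM after Acetalax, and at 48.4 and 35.1 CPM in CE cells. In BT549 parental cells it was at 1.73 CPM without and 0.598 CPM with Acetalax, from 73 and 26 counts, and in BT549 CE cells at 20.6 and 8.92 CPM. The Acetalax library was the lower of each pair, and the 4 MDA-MB468 libraries lay above the 4 BT549 libraries. The log2 ratio was -0.62 (95% interval -0.71 to -0.53) and -0.46 (-0.56 to -0.37) in MDA-MB468 parental and CE cells, and -1.39 (-2.24 to -0.87) and -1.20 (-1.37 to -1.05) in BT549 parental and CE cells. The largest difference of STRA6 was between states of BT549, where the log2 ratio of CE to parental cells was 3.50 (3.23 to 3.93) without Acetalax and 3.69 (3.33 to 4.53) with it. In MDA-MB468 the same ratios were -0.09 (-0.18 to -0.01) and 0.07 (-0.03 to 0.17). Some markers of other cell states differed in the direction of STRA6 in BT549, and others went the other way. The summed level of the 8 epithelial markers was 9.82 and 6.16 CPM in parental control and Acetalax cells and 87.7 and 52.0 CPM in CE cells. Of the 8, 5 were higher in CE than in parental control cells and 0 were without counts in either. EPCAM, KRT5 and KRT14 were lower in CE control cells. Their parental and CE control levels were 0.189 and 0.037, 0.071 and 0.018, and 0.592 and 0.018 CPM. KRT8 was at 1.25 and 34.4 CPM and KRT18 at 6.67 and 47.9 CPM in the parental and CE control libraries. Of the 6 mesenchymal markers, 2 were higher in CE control cells, SPARC at 439 and 3447 CPM and COL1A1 at 947 and 1291 CPM. The other 4 were lower, with VIM at 1327 and 864 CPM and CDH2 at 223 and 110 CPM. FN1 was at 1629 and 593 CPM and ZEB1 at 86.1 and 58.5 CPM. The part of these markers in the STRA6 values was not tested. CCDC33 lies on the opposite strand and shares 519 exon bases with STRA6. In MDA-MB468 its counts were 237 and 216 in parental and CE control cells and 163 and 171 in parental and CE Acetalax cells. In BT549 they were 0, 2, 45 and 38 in parental control, parental Acetalax, CE control and CE Acetalax cells. The library kit keeps strand but the counting setting is not named, so reads of this pair of genes cannot be assigned with certainty.

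CRABP2, the carrier that delivers retinoic acid to its receptors (chr1:156669398-156675608, minus strand), separated the lines most widely. In MDA-MB468 it was at 838 CPM in parental control, 552 CPM in parental Acetalax, 594 CPM in CE control and 476 CPM in CE Acetalax cells. The BT549 libraries, in the same order, had 2.03, 4.00, 2.88 and 3.42 CPM, from 86 to 174 counts. The lines did not overlap, and the lowest MDA-MB468 library was 119-fold above the highest BT549 library. The log2 ratio after Acetalax was -0.60 (-0.63 to -0.58) and -0.32 (-0.35 to -0.29) in MDA-MB468 parental and CE cells and 0.94 (0.59 to 1.37) and 0.24 (-0.07 to 0.57) in BT549 parental and CE cells. CRABP2 was thus lower after Acetalax in the line that held much of it, and in BT549 the values were higher, with an interval that crossed 0 in CE cells. Against parental control cells, CE control cells had a log2 ratio of -0.50 (-0.52 to -0.47) in MDA-MB468 and 0.48 (0.11 to 0.90) in BT549. The level of epithelial markers given above differs between the lines in the same direction as CRABP2, and its part in the difference was not tested.

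RDH10, the retinol dehydrogenase that makes retinal for retinoic acid synthesis, was at 103 CPM in MDA-MB468 parental control cells and 51.9 CPM in BT549 parental control cells. With Acetalax these levels were 56.0 and 27.4 CPM. The CE libraries, control and Acetalax, had 24.6 and 22.6 CPM in MDA-MB468 and 28.7 and 23.5 CPM in BT549. In each line the parental control library stood highest. The log2 ratio after Acetalax was -0.88 (-0.94 to -0.81) in MDA-MB468 and -0.92 (-1.03 to -0.82) in BT549 parental cells. In CE cells it was -0.12 with an interval that crossed 0 in MDA-MB468 and -0.29 (-0.40 to -0.18) in BT549. CE control cells were lower than parental control cells in both lines, with log2 ratios of -2.06 (-2.16 to -1.97) and -0.85 (-0.95 to -0.76). RDH10 was the only one of the 9 genes that was lower in CE than in parental cells of both lines, with and without Acetalax. With Acetalax these ratios were -1.30 (-1.41 to -1.21) in MDA-MB468 and -0.22 (-0.34 to -0.11) in BT549. The BT549 value came from 1186 CE and 1192 parental counts and was -0.09 with another scaling of the libraries.

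DHRS3, the reductase that returns retinal to retinol and so limits retinoic acid (chr1:12627939-12677737, minus strand), had the lowest median ratio of the 9. In MDA-MB468 it was at 146 and 73.2 CPM in parental control and Acetalax cells and at 126 and 32.3 CPM in CE control and Acetalax cells. In BT549 the same libraries had 85.4, 36.7, 140 and 66.8 CPM. Each Acetalax library was lower than each of the 4 control libraries, in either line. The log2 ratio was -0.99 (-1.05 to -0.94) in MDA-MB468 parental, -1.96 (-2.05 to -1.88) in MDA-MB468 CE, -1.22 (-1.30 to -1.13) in BT549 parental and -1.06 (-1.12 to -1.01) in BT549 CE cells. Of the 14030 genes, 1.18% had a median over the 4 backgrounds at or below that of DHRS3. The state of the cells went with opposite differences: the log2 ratio of CE to parental cells was -0.21 (-0.26 to -0.16) without and -1.18 (-1.27 to -1.09) with Acetalax in MDA-MB468, and 0.71 (0.65 to 0.77) and 0.86 (0.78 to 0.95) in BT549.

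ALDH1A3, a dehydrogenase that turns retinal into retinoic acid (chr15:101417919-101456831, plus strand), was the exception in direction. It was at 282 and 749 CPM in MDA-MB468 parental control and Acetalax cells and at 494 and 1077 CPM in CE control and Acetalax cells. In BT549 parental cells it was at 124 CPM without and 126 CPM with Acetalax, and in BT549 CE cells at 25.9 and 92.8 CPM. All MDA-MB468 libraries were above all BT549 libraries, and the BT549 CE control library stood lowest. The log2 ratio after Acetalax was 1.41 (1.38 to 1.44) and 1.12 (1.10 to 1.15) in MDA-MB468 parental and CE cells and 1.84 (1.75 to 1.93) in BT549 CE cells. In BT549 parental cells it was 0.02 (-0.04 to 0.07), which counting error alone covers, so the same sign in all 4 pairs rests on 3 of them. CE control cells were higher than parental control cells in MDA-MB468, with a log2 ratio of 0.81 (0.78 to 0.84), and lower in BT549, with -2.26 (-2.35 to -2.18). With Acetalax these ratios were 0.52 (0.50 to 0.54) and -0.44 (-0.49 to -0.38). The antisense gene ALDH1A3-AS1 shares 1715 exon bases with ALDH1A3, and its counts were 4.59% to 6.33% of those of ALDH1A3 in MDA-MB468 and 7.35% to 8.61% in BT549. As the counting setting for strand is not named, reads of this pair cannot be assigned with certainty either.

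**Figure D2:**
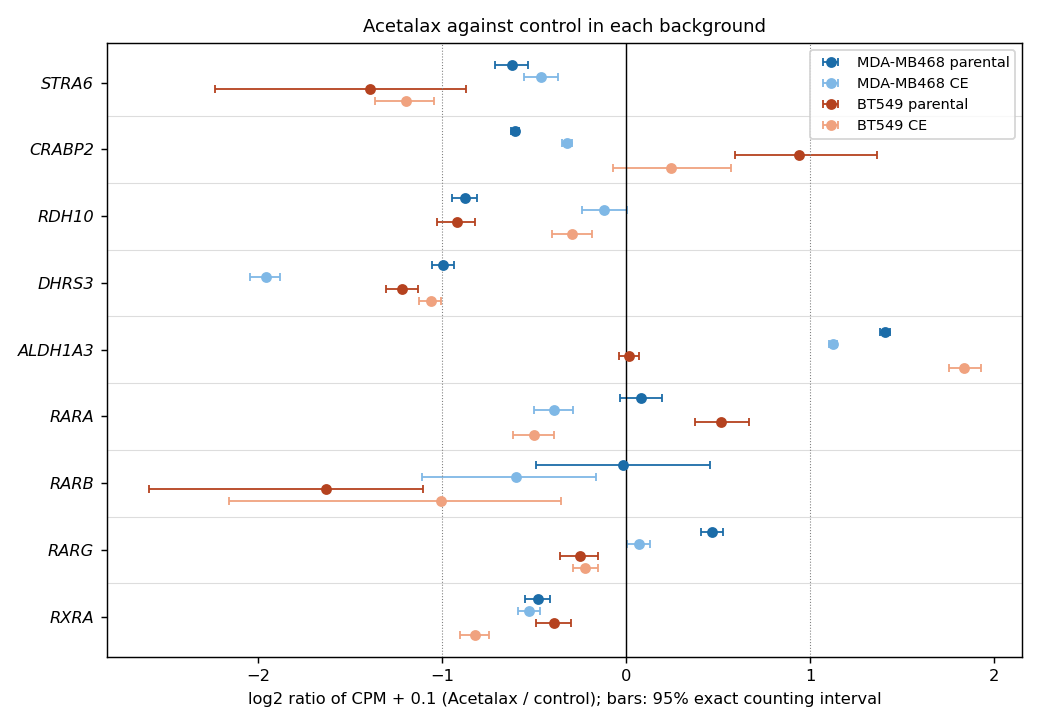
The horizontal axis is the log2 ratio of CPM + 0.1 in the Acetalax library to the control library of the same background, with 95% exact counting intervals, and the rows are the 9 genes in order of role. Dotted lines mark 2-fold; all 4 DHRS3 points lie at or left of -0.99, and 3 of the 4 ALDH1A3 points lie right of 1.

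Of the receptors, RXRA and RARB were lower in all 4 pairs, and RARA and RARG were not. RXRA, the partner with which the RAR proteins bind DNA (chr9:137208944-137332431, plus strand), was at 87.3 and 62.5 CPM in MDA-MB468 parental control and Acetalax cells and at 122 and 84.8 CPM in CE cells. In BT549 it was at 48.9 and 37.2 CPM in parental and at 70.6 and 39.9 CPM in CE cells. Its log2 ratio after Acetalax was between -0.82 in BT549 CE cells (-0.90 to -0.74) and -0.39 in BT549 parental cells (-0.49 to -0.30), and no interval reached 0. CE control cells had more RXRA than parental control cells in both lines, with log2 ratios of 0.48 (0.43 to 0.54) and 0.53 (0.45 to 0.61).

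RARB, the receptor whose gene is a direct target of retinoic acid (chr3:25215823-25639423, plus strand), was sparse, with 16 to 95 counts per library. In MDA-MB468 it was at 1.60 and 1.59 CPM in parental control and Acetalax cells and at 2.15 and 1.39 CPM in CE cells. In BT549 it was at 1.70 and 0.483 CPM in parental and at 0.737 and 0.316 CPM in CE cells. The log2 ratio was -1.63 (-2.60 to -1.10) and -1.01 (-2.16 to -0.35) in BT549 parental and CE cells, -0.60 (-1.11 to -0.16) in MDA-MB468 CE cells and -0.02 (-0.49 to 0.46) in MDA-MB468 parental cells, where a difference was not detectable at this depth.

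RARA (chr17:38465444-38513094, plus strand) and RARG (chr12:53604354-53626764, minus strand), the other retinoic acid receptors, had no common direction after Acetalax. RARA was at 26.0, 27.5, 35.0 and 26.7 CPM in MDA-MB468 parental control, parental Acetalax, CE control and CE Acetalax cells and at 14.6, 21.0, 31.4 and 22.1 CPM in the same libraries of BT549. Its log2 ratio was 0.08 (-0.03 to 0.19) and 0.52 (0.37 to 0.67) in MDA-MB468 and BT549 parental cells but -0.39 (-0.50 to -0.29) and -0.50 (-0.61 to -0.39) in their CE cells. RARA was higher in CE than in parental control cells, by 0.43 (0.32 to 0.54) in MDA-MB468 and 1.09 (0.96 to 1.23) in BT549 on the log2 scale, whereas with Acetalax these ratios were -0.04 (-0.16 to 0.07) and 0.08 (-0.05 to 0.20). RARG was at 80.1, 111, 90.8 and 95.2 CPM in MDA-MB468 and at 39.4, 33.1, 71.6 and 61.4 CPM in BT549, in the same order of libraries. Its log2 ratio after Acetalax was 0.46 (0.41 to 0.53) and 0.07 (0.01 to 0.13) in MDA-MB468 parental and CE cells and -0.25 (-0.36 to -0.15) and -0.22 (-0.29 to -0.15) in BT549. In the BT549 CE pair the median over the 14030 genes was -0.20. Other scalings of the libraries put RARG in that pair at -0.07 and -0.02. RARA-AS1, which shares 556 exon bases with RARA on the opposite strand, had 13 to 73 counts per library against 619 to 1701 for RARA.

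Promoter sequence is shown for RARB, STRA6 and DHRS3, the 3 genes with the lowest median Acetalax ratios, because the RAR and RXR pair is known to bind direct repeats of a short core motif. The motif was searched in the forms AGGTCA and, differing inside it, AGTTCA, then in the form GGGTCA and finally in the form GGTTCA. It was searched on both strands, alone or as 2 copies in the same direction with 1, 2 or 5 bases between them (DR1, DR2 and DR5), in RefSeq promoter windows of 250 bases before to 50 after each start (GRCh38.p14). Windows were present for 8 of the 9 genes, 20 in all. A DR5 was found in 1 of the 20, in RARB at positions -53 to -37 from the start, and in 0.0891% of all 34796 windows. No DR1 or DR2 was found in the 20, and they were in 0.126% and 0.0374% of all windows. A single core motif was found in 10 of the 20 windows, in 6 of the 8 genes, against 38.6% of all windows. A match describes letters in a window, not a bound site. The window with the most core motifs is printed for each of the 3 genes, so the windows shown are richer in the motif than the rest. Of the 4 RARB windows, the one printed (chr3:25428013-25428312, plus strand) has the DR5 in capitals, and 1 other has no core motif. The RARB window printed holds 3 core motifs, and the one outside the DR5, GGGTCA, is left in lower case. The STRA6 window printed (chr15:74212210-74212509, minus strand) has 3 core motifs in capitals, with TGACCT the reverse complement of AGGTCA, whereas 3 of the 5 STRA6 windows have 0. The DHRS3 window printed (chr1:12616740-12617039, minus strand) is the first of those with 1 core motif, and 1 of the 3 DHRS3 windows has 0.
RARB: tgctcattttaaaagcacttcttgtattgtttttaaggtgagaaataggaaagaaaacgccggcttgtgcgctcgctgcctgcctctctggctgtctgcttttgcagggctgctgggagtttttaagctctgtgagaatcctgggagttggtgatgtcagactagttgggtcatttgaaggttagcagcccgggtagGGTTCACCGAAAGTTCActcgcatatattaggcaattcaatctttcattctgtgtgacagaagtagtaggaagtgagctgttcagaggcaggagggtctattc
STRA6: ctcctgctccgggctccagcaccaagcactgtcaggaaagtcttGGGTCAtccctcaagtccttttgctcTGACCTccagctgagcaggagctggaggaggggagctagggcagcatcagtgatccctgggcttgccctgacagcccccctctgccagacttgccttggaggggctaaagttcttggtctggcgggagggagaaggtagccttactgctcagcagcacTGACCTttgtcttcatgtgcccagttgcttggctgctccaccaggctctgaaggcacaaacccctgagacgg
DHRS3: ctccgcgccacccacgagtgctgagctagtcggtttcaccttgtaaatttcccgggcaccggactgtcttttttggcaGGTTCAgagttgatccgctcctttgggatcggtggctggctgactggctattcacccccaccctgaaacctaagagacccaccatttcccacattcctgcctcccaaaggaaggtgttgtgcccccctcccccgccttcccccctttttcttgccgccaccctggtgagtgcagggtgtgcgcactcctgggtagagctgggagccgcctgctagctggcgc

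The shares of genes past 2-fold set the scale for these values. In the MDA-MB468 parental pair, 1 of the 9 genes was at least 2-fold higher after Acetalax (4.65% of the 14030 genes) and 0 at least 2-fold lower (3.99%). In MDA-MB468 CE cells 1 was higher (2.21%) and 1 lower (2.58%). In BT549 parental cells 0 were higher (1.8%) and 3 lower (2.45%), and in BT549 CE cells 1 was higher (4.05%) and 3 lower (12.4%). For CE against parental control cells, 0 were higher (2.49%) and 1 lower (2.12%) in MDA-MB468, and 2 higher (7.71%) and 2 lower (5.61%) in BT549. DHRS3 in MDA-MB468 parental cells lay just inside 2-fold, at -0.99, and RARB in BT549 CE cells just outside, at -1.01. Without the added 0.1 CPM, the change of RARB in that pair was -57.1%. The BT549 CE pair has the largest share of lower genes, and its all-gene median log2 ratio of -0.20 became -0.05 with scaling by trimmed mean of M values (TMM). In that pair the median of the 9 genes was -0.50, and -0.34 with TMM. Whether fewer cells with a transcript or less of it per cell lies behind a lower value cannot be told apart in bulk RNA.

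**Figure D3:**
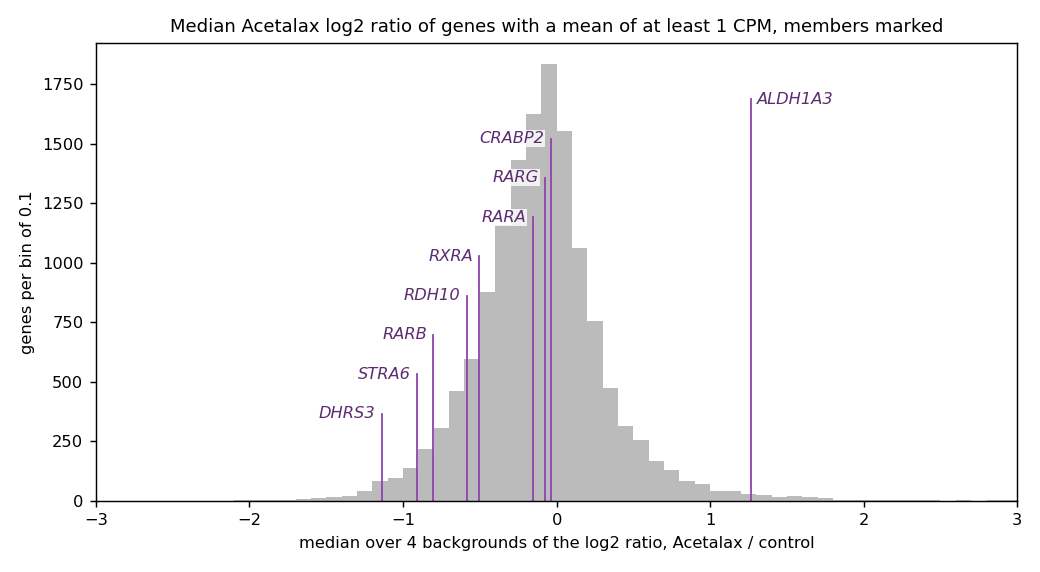
Grey bars count genes, of 14030 that averaged 1 CPM or more, by the median over 4 backgrounds of the log2 ratio of Acetalax to control (bins of 0.1; values beyond the axis are in the outermost bins). The 9 genes are marked by lines whose heights only separate the names; 90% of genes fall between -0.78 and 0.59, DHRS3 (-1.14), STRA6 (-0.91) and RARB (-0.80) lie left of that range and ALDH1A3 (1.27) right of it.

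CE against parental control cells had the same sign in both lines for 4 of the 9 genes, against 52.9% of the 14030 genes. RDH10 was lower and RXRA and RARA higher in CE control cells of both lines, and RARG was higher with 0.18 (0.12 to 0.25) in MDA-MB468 and 0.86 (0.78 to 0.94) in BT549. CRABP2, DHRS3 and ALDH1A3 had opposite signs in the lines. STRA6 and RARB did too, but the STRA6 ratio was close to 0 in MDA-MB468, at -0.09. For RARB the ratios were 0.40 (-0.02 to 0.87) in MDA-MB468, which counting error covers, and -1.11 (-1.80 to -0.63) in BT549. No test compared the lines. The comparisons of CE with parental cells and of Acetalax with control cells share the control libraries, so a low control library moves both.

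**Figure D4:**
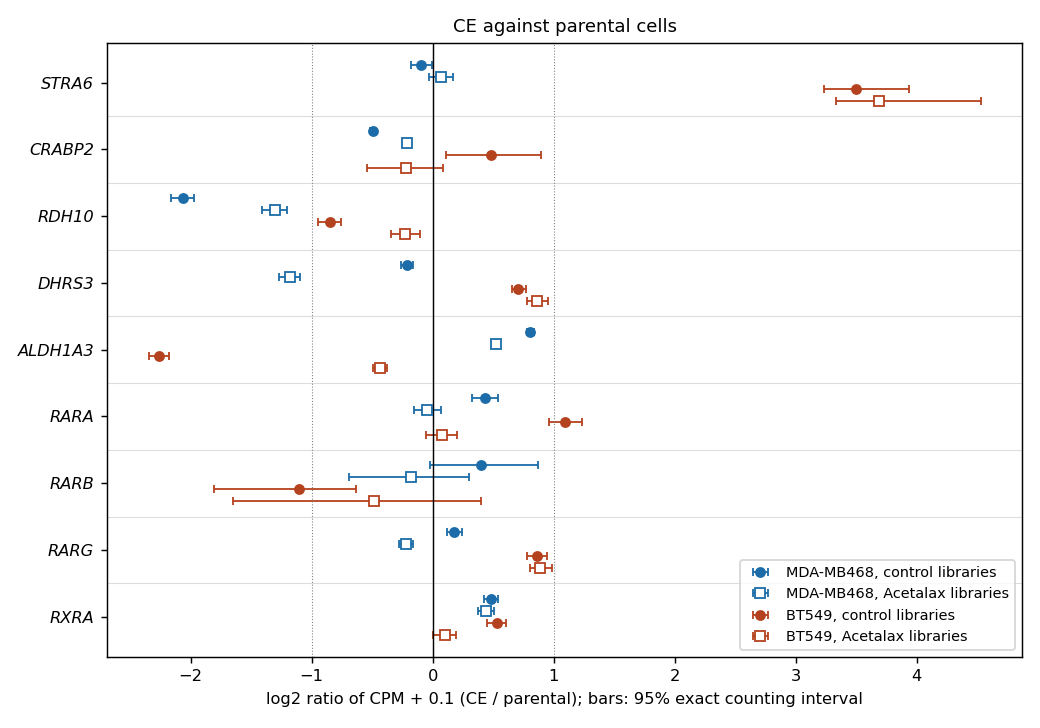
The horizontal axis is the log2 ratio of CPM + 0.1 in CE to parental cells of the same line, with 95% exact counting intervals; filled circles compare control libraries and open squares Acetalax libraries. STRA6 in BT549 lies at 3.50 and 3.69, RDH10 in MDA-MB468 at -2.06 and -1.30, and ALDH1A3 in BT549 at -2.26 and -0.44.

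Per length, the order of the transcripts differed between the lines. In FPKM (CPM divided by the length of the merged exons in kilobases), MDA-MB468 parental control cells had 774 of CRABP2, 52.9 of ALDH1A3, 41.5 of DHRS3, 19.3 of RDH10, 15.6 of RARG, 7.23 of RXRA, 6.73 of STRA6, 5.48 of RARA and 0.17 of RARB. BT549 parental control cells had 24.3 of DHRS3, 23.3 of ALDH1A3, 9.74 of RDH10, 7.69 of RARG, 4.05 of RXRA, 3.09 of RARA, 1.88 of CRABP2, 0.23 of STRA6 and 0.18 of RARB. With the length of the longest transcript instead, 17 of these 18 levels moved and part of the order changed: in MDA-MB468 parental control cells RARG (27.5 FPKM) then stood above RDH10 (26.0), and STRA6 (17.9) above RXRA (15.1). In BT549 parental control cells RARG (13.5) then stood above RDH10 (13.1). Under both lengths RARG was the most abundant RAR and RARB the least in all 8 libraries. By CPM, 4 of the 9 genes (CRABP2, ALDH1A3, STRA6 and RARG) were higher in every MDA-MB468 than in every BT549 library, a pattern found in 32.7% of the 14030 genes, and 0 of the 9 had the reverse order.

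The genes with the most similar pattern were found by the root mean square difference over the 6 log2 ratios, among 11135 genes averaging 5 CPM or more. For DHRS3 they included ARRDC3, an arrestin family member, at 0.30 and PHF21A at 0.43. For ALDH1A3 they were NIPAL1 at 0.20, ALDH1A3-AS1 at 0.24 and DUSP6, a phosphatase of ERK, at 0.27. ALDH1A3-AS1 overlaps ALDH1A3 on the opposite strand, so its pattern may not be independent of that gene's reads. NIPAL1 had log2 ratios after Acetalax of 1.45 and 0.95 in MDA-MB468 parental and CE cells and -0.15 and 1.76 in BT549, and DUSP6 of 1.51, 0.90, -0.06 and 2.10. The genes nearest to STRA6 were EPSTI1 at 0.24, PARP10 at 0.31 and PARP9 at 0.35, all known as genes that interferon raises, and STRA6 itself had a root mean square of 1.64 over the 6 ratios. Nearest to RDH10 were NES at 0.31, SLC6A14 at 0.41 and ATP6V0A4 at 0.47. For CRABP2 they were HDAC5, PBLD and PCBP1-AS1 at 0.23 to 0.29, for RARA AP1G2, MPND and RP11-141M3.5 at 0.17 to 0.25, and for RXRA ZNF688, TLCD2 and KRIT1 at 0.09 to 0.12. RARB was too low in expression and RARG varied too little to be compared in this way. The limit of 5 CPM was on the mean over the 8 libraries, so genes near 0 in 1 line could pass. Their ratios in that line rest on few counts. In BT549 CE cells after Acetalax, SLC6A14 had a ratio of 0, and ATP6V0A4 and RP11-141M3.5 had the same ratio of -0.374824. The likeness of these 3 genes to RDH10 or RARA is therefore not shown for BT549.

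Other genes of the pathway were taken in 5 lists of 69 genes, of which 42 averaged 1 CPM or more. edgeR's quasi-likelihood test was applied to them with the 4 backgrounds as replicates of Acetalax against control and Benjamini-Hochberg adjustment over all genes tested. Over 19693 genes, 2.72% were called higher and 2.27% lower, 984 in all. Of the 56 list genes tested, 0 were called higher and 1 lower, and 19 had an unadjusted p under 0.05, as had 5523 (28.0%) of all genes tested. The 1 was NCOA2, a coactivator of nuclear receptors, at 44.6 and 32.4 CPM in MDA-MB468 parental control and Acetalax cells, 44.9 and 29.4 CPM in MDA-MB468 CE, 74.7 and 46.2 CPM in BT549 parental and 61.7 and 25.9 CPM in BT549 CE cells. NCOA2 fell in 4 of 4 backgrounds, with a log2 fold change of -0.66 (SE 0.14, edgeR adjusted p = 0.042). The call was lost when any 1 background was left out.

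**Figure D5:**
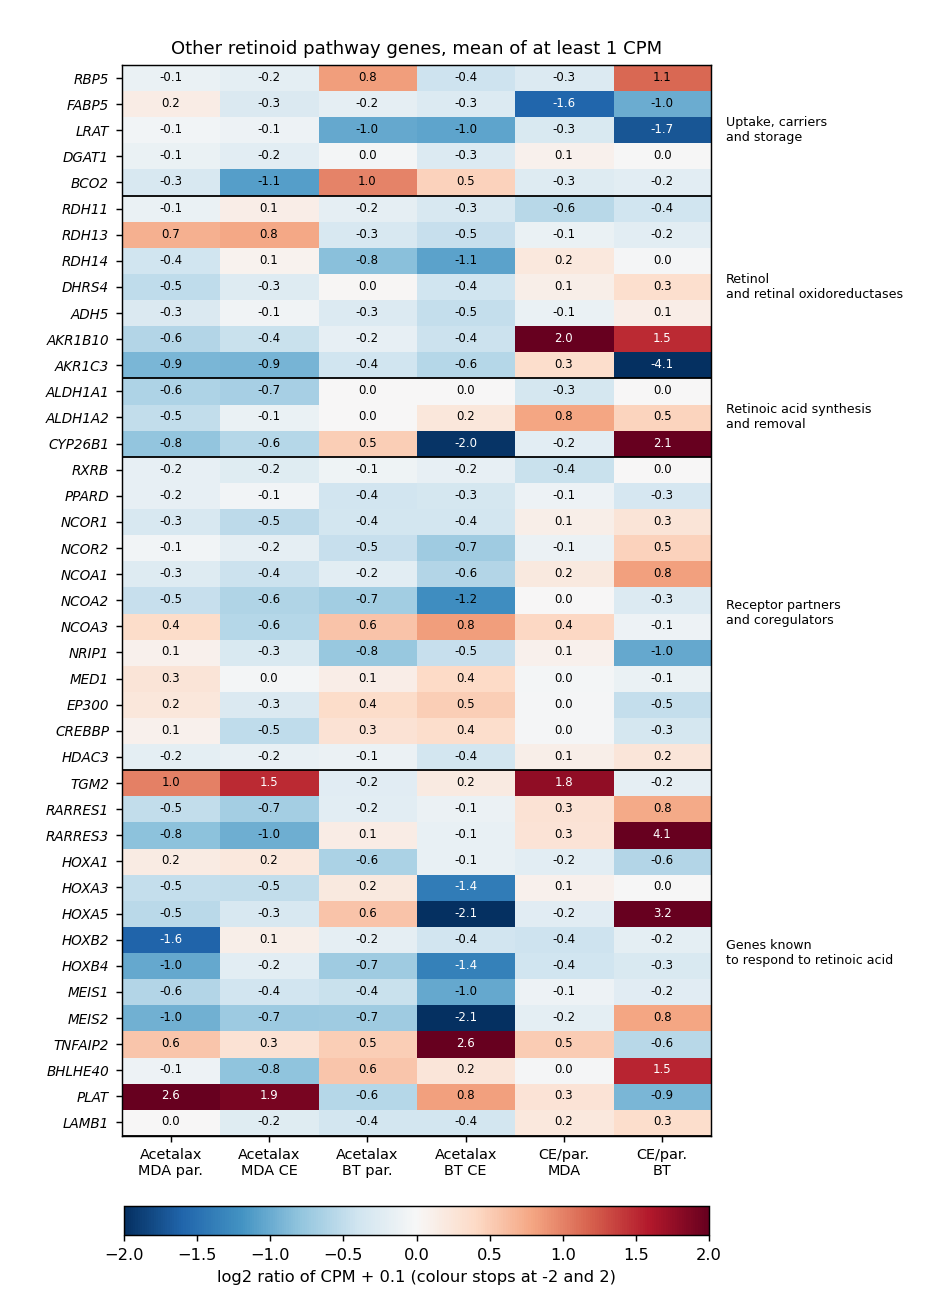
Each cell gives the log2 ratio of CPM + 0.1 for 1 of 41 of the 42 other pathway genes that averaged 1 CPM or more (rows, grouped by list) in 1 of 6 pairs of libraries (columns: Acetalax against control in 4 backgrounds, then CE against parental control cells in 2 lines), with blue for lower and red for higher. NCOA2 is blue in the 4 Acetalax columns, AKR1B10 is red in both CE columns (2.02 and 1.49), and the BT549 CE column holds 9 of the 13 values at or below -1 after Acetalax.

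By list, 12 genes of uptake, carriers and storage had 6 at that level. LRAT, which esterifies retinol for storage, was lower in all 4 pairs, with log2 ratios of -0.05, -0.10, -1.02 and -1.05 in MDA-MB468 parental, MDA-MB468 CE, BT549 parental and BT549 CE cells (edgeR adjusted p = 0.438). In BT549 it was at 0.710 and 0.299 CPM in parental and 0.147 and 0.020 CPM in CE control and Acetalax cells. Its ratios in that line rest on few counts. Of 18 oxidoreductases, 7 had that mean, and AKR1C3 and AKR1B10, both aldo-keto reductases that reduce retinal, had the steadiest direction. AKR1C3 had -0.92, -0.93, -0.40 and -0.56 (edgeR adjusted p = 0.075) and AKR1B10 -0.58, -0.44, -0.16 and -0.43 (0.095). In BT549 AKR1B10 was at 0.166 and 0.138 CPM in parental and 0.645 and 0.455 CPM in CE control and Acetalax cells. AKR1C3 was at 0.866 and 0.554 CPM in BT549 CE cells. At these levels the direction rests on few counts. In the list of synthesis and removal, 3 of 6 genes had that mean, and none of these 3 had 1 direction in all 4 pairs. CYP26B1, which degrades retinoic acid, was at 22.9 and 13.2 CPM in MDA-MB468 parental and 19.7 and 13.3 CPM in CE control and Acetalax cells, but at 0.71 and 1.04 CPM in BT549 parental and 3.43 and 0.811 CPM in BT549 CE cells. ALDH1A1, the paralogue of ALDH1A3, was at 11.3 to 22.9 CPM in MDA-MB468 and had 0 counts in every BT549 library.

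Receptor partners and coregulators were the best represented, with 12 of 13 genes at that mean. Besides NCOA2, the corepressor NCOR1 had the steadiest direction, with -0.31, -0.53, -0.37 and -0.36 (edgeR adjusted p = 0.080). Of 20 genes known to respond to retinoic acid, 14 had that mean. MEIS2, a homeobox factor, was at 22.3 and 11.4 CPM in MDA-MB468 parental, 19.4 and 11.6 CPM in MDA-MB468 CE, 8.52 and 5.15 CPM in BT549 parental and 14.8 and 3.28 CPM in BT549 CE control and Acetalax cells. Its log2 fold change was -1.05 (SE 0.24, edgeR adjusted p = 0.052), just short of the threshold. MEIS1 had -0.59, -0.39, -0.45 and -1.02 (edgeR adjusted p = 0.104). TNFAIP2 was the list's only gene with higher values in all 4 pairs, at 0.56, 0.29, 0.50 and 2.59 (edgeR adjusted p = 0.142). In BT549 it was low, at 0.426 and 0.644 CPM in parental and 0.258 and 2.06 CPM in CE control and Acetalax cells.

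For CE against parental cells in the 4 control libraries, where the 2 lines are the replicates, edgeR called 0 of 18377 genes (0%), and 610 had an unadjusted p under 0.05. Of 53 list genes tested, 0 were called and 2 had an unadjusted p under 0.05. DESeq2 called 46 genes, 1 of them in the lists. That gene was AKR1B10, at 33.7 and 137 CPM in MDA-MB468 parental and CE control cells and 0.166 and 0.645 CPM in those of BT549 (edgeR log2 fold change 1.98, adjusted p = 0.947). For the difference between the Acetalax responses of BT549 and MDA-MB468, edgeR called 0.533% of 19693 genes higher and 1.25% lower. None of the 56 list genes was called (0), and 16 had an unadjusted p under 0.05, as had 3403 (17.3%) of all genes tested. RDH13, a mitochondrial member of the retinol dehydrogenase family, was closest, with ratios of 0.71 and 0.77 in MDA-MB468 and -0.32 and -0.46 in BT549 (difference -1.09, SE 0.21, edgeR adjusted p = 0.051).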

How the data were processed

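RNA-seq libraries (poly(A)-selected, strand-keeping kit) of 8 conditions, 1 library each, were analysed. The authors aligned reads to hg19 with STAR (version 2.7.11b per the submitters' processing notes), counted them per gene with its gene counting option, and deposited raw counts that were not normalized. The annotation used and which strand column was read are not given in the sources used here. The table holds 58154 rows for 55679 gene identifiers. Repeats of 1392 identifiers were kept 1 time (3 had differing counts), and 0 rows lacked a gene.

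Counts were divided by each library's total on genes (CPM). Log2 ratios used CPM + 0.1. Intervals of a ratio are exact binomial, without the added 0.1, and those of a level Wilson, both 95%. FPKM used merged exons of an hg19 GENCODE annotation (55663 identifiers). Other pathway genes were tested over the whole table with edgeR 4.0.16 in R 4.3.3 (quasi-likelihood, TMM, filterByExpr, Benjamini-Hochberg, threshold 0.05), with 3 residual degrees of freedom for Acetalax (4 background intercepts), 1 for CE and 2 for the difference between lines. Parental and CE cells of 1 line share their origin, so p-values measure the spread between these backgrounds, which are no replicate cultures. The script was tested on simulated data. Alternatives were other scalings, pseudocounts, length definitions, filters, DESeq2 1.42.0, a 1.5-fold limit and leaving out each background.

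Members and lists were chosen with earlier results of these data known. Named were all 9 members, list genes called in a test, the 2 genes per list with the steadiest direction over the 4 Acetalax pairs, and the 3 genes nearest to each member with a root mean square ratio of at least 0.5 and a mean of at least 5 CPM. CYP26B1, ALDH1A1, RDH13, CCDC33, RARA-AS1 and, in the closing section, RARRES1, RARRES3 and HOXA5 were chosen after their values were seen. Genes that this rule covers but that do not appear are not reported here. Of the cell type markers, 1 was not used here.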

Additional observations from a re-analysis of the deposited data

Results flagged for a closer look

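For 4 genes, both pairs of one line lay on the opposite side of 0 from both pairs of the other line, and the difference was not tested because the genes were chosen with these values known. CRABP2 after Acetalax had log2 ratios of -0.6027 in MDA-MB468 parental and -0.32 in MDA-MB468 CE cells against 0.9416 in BT549 parental and 0.2425 in BT549 CE cells. RARG after Acetalax had 0.4649 and 0.0675 in MDA-MB468 parental and CE cells against -0.253 and -0.2216 in BT549. The BT549 CE value lay near that pair's all-gene median of -0.20. It was -0.07 with TMM and -0.02 with DESeq2 size factors. DHRS3 in CE against parental cells had -0.2125 (control) and -1.1783 (Acetalax) in MDA-MB468 against 0.7093 and 0.8624 in BT549. ALDH1A3 in CE against parental cells had 0.8075 (control) and 0.5229 (Acetalax) in MDA-MB468 against -2.2567 and -0.4362 in BT549.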

How the results depend on the processing

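With 1 library per condition, the error between replicates is unknown for every ratio, and depth is lowest for RARB and for STRA6 and CRABP2 in BT549. Of the 54 ratios of the 9 genes, 1 changed sign with TMM or with DESeq2 size factors, that of RARB in MDA-MB468 parental cells after Acetalax (-0.02). With either scaling, 4 genes instead of 5 were lower in all 4 Acetalax pairs. With pseudocounts of 0.5 or 1 CPM or with FPKM + 1, 0 of the 54 ratios changed sign. Genes past 2-fold in the BT549 CE Acetalax pair numbered 4, but 2 with TMM, 1 with DESeq2 size factors and 2 with log2 of FPKM + 1. In the BT549 parental pair they were 3, and 1 with a pseudocount of 1 CPM or with FPKM + 1. For CE against parental cells in BT549 they were 4, and 2 with FPKM + 1. A limit of 1.5-fold gave 5 and 5 in the MDA-MB468 and BT549 parental Acetalax pairs, and 2 and 7 for CE in MDA-MB468 and BT549, where 24.4%, 17.5%, 11.5% and 29.7% of the 14030 genes passed that limit.

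For the other pathway genes, Acetalax called 1 gene, but 2 with DESeq2 size factors in edgeR, 12 with all genes of at least 1 count, 6 with DESeq2, and 0 with the parental or the CE backgrounds alone. Leaving out 1 background gave 0 to 1 calls, 0 without MDA-MB468 parental, BT549 parental or BT549 CE cells and 1 without MDA-MB468 CE cells, which was HOXB4 and not NCOA2. CE against parental cells gave 0, but 1 with all genes, DESeq2 or 8 libraries. The difference between the lines gave 0, but 1 with DESeq2 size factors, 10 with all genes and 3 with DESeq2. Why these counts moved was not tested. Over all genes, the Acetalax calls numbered 984, and 3585 with all genes of at least 1 count, 2678 with DESeq2 and 0 without MDA-MB468 parental cells. The Acetalax fit already pairs each treated library with the control of its background, and the labels give no replicate numbers for any further pairing.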

Other observations

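Some genes known to respond to retinoic acid had values that separated the states of BT549 in the direction of STRA6. RARRES3, a tumour suppressor of the phospholipase family, was at 0.095 and 0.115 CPM in BT549 parental control and Acetalax cells and at 3.23 and 2.91 CPM in BT549 CE cells, a log2 ratio of 4.09 between the control libraries. HOXA5, a homeobox factor, was at 0.402 CPM in BT549 parental and 4.54 CPM in BT549 CE control cells. With Acetalax it was at 0.644 and 0.969 CPM, so the states differed less than without it. In BT549 parental cells the values of RARRES3 and HOXA5 rest on few counts. In MDA-MB468 the control libraries differed less, with RARRES3 at 216 and 262 CPM and HOXA5 at 5.39 and 4.58 CPM in parental and CE cells. RARRES3 and RARRES1 were lower after Acetalax in MDA-MB468, with log2 ratios of -0.82 and -0.97 for RARRES3 and -0.50 and -0.68 for RARRES1 in parental and CE cells, and neither passed the test over the 4 backgrounds (edgeR adjusted p = 0.099 and 0.088). These genes were picked after their values were seen, and no explanation was tested.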
